A study of Mus musculus with 3 samples.

Results

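Ddx4, Dazl, Sycp3, Stk31, Slc25a31, Hormad1, Stra8, Mael and Sycp1 are germline genes whose RNA was read in R1 cells, an established line of mouse embryonic stem (ES) cells from strain 129. The 9 genes were chosen by symbol, as germline genes whose level was uneven between the repeats of the line, with Mael and Sycp1 added for contrast. They are 9 of 19057 genes that had at least 1 probe set annotated to a single gene, and all 9 were found, Hormad1 with 2 probe sets and the others with 1 each. Total RNA of 3 repeats was labelled with biotin and read on Mouse Gene 1.0 ST arrays from Affymetrix, whose probes lie along the exons of each transcript. The 3 arrays are 1 group, and there is no second condition. The sources used here state no medium, feeder layer or passage, nor whether the repeats were separate cultures, and the spread between repeats may be technical. DNA methylation was not measured in these samples.

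In the mouse, genes of this kind are silent in most somatic tissues and are read in germ cells. Many have promoters rich in CpG, the dinucleotide that carries DNA methylation, and the loss of that methylation in primordial germ cells accompanies their activation. In ES cells a repressive complex of the Polycomb type, PRC1.6, is also known to bind many germline promoters, through the pair Mga and Max, which binds the E-box CACGTG, and through E2f6, an E2F factor. The promoters are therefore shown first, with these motifs.

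The 250 bases before the annotated start of 6 of the genes follow, 5′ to 3′ on the strand of the gene, from RefSeq on GRCm38.p6. Ddx4, Dazl and Stra8 stand for the genes in which repeat 2 lay farthest from the gene's mean, Sycp3 and Hormad1 are those in which repeat 1 did, and Mael is the even one. Capitals mark the E-box CACGTG, which reads the same on both strands, and the E2F motif GCGGGAA or its reverse complement TTCCCGC.
Ddx4, chr13:112652311-112652560, minus strand: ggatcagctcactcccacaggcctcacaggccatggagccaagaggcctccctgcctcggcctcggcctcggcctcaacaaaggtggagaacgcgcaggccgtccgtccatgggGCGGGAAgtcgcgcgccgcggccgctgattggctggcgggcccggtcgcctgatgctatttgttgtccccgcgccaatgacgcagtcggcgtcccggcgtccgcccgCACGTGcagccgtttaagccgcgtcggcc
Dazl, chr17:50293621-50293870, minus strand: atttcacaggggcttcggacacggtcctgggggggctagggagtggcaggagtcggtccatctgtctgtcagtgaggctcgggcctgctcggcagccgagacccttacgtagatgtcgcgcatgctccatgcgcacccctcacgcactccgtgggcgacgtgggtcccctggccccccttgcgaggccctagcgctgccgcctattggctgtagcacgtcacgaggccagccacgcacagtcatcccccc
Stra8, chr6:34920698-34920947, plus strand: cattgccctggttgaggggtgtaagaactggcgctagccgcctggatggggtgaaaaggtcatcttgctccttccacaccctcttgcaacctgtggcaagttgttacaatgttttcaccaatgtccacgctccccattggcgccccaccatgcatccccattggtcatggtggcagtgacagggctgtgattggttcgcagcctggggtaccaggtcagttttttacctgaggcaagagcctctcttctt
Sycp3, chr10:88459337-88459586, plus strand: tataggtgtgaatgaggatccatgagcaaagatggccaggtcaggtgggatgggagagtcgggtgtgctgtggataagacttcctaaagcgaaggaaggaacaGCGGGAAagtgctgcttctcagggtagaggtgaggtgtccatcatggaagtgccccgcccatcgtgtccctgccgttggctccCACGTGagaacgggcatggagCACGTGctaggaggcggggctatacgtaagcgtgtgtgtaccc
Hormad1, chr3:95559427-95559676, plus strand: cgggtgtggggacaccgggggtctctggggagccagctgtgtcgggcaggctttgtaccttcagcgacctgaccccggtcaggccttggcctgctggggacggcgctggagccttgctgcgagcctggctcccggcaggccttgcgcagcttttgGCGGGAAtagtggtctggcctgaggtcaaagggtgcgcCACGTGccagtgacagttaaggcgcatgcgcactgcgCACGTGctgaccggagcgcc
Mael, chr1:166238745-166238994, minus strand: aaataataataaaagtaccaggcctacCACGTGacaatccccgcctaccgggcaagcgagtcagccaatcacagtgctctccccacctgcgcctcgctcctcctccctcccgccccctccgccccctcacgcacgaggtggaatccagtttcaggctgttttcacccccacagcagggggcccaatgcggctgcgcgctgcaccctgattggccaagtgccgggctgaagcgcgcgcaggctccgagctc

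The E-box stood in 7 of the 9 windows and was missing from those of Dazl and Stra8. Sycp3 and Hormad1 each held 2 copies, and Ddx4, Stk31, Slc25a31, Mael and Sycp1 held 1. Of 14899 measured genes with a window in the same table, 7.02% held the E-box, and of all 32851 windows 6.02% did. Among 7377 measured genes with at least 12 CpG, the lowest number among the members apart from Stra8, the share was 9.98%. The E2F motif stood in 3 of the 9 windows, those of Ddx4, Sycp3 and Hormad1, against 5.36% of measured genes and 9.08% of those with at least 12 CpG. These 3 windows held both motifs, which never overlapped, and 0.463% of measured genes had both, or 0.854% of those with at least 12 CpG. The motifs were chosen with the windows in view, and a match is a description of letters, not a bound site.

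The windows also differed in CpG. Ddx4 held 31 CpG in 250 bases, Stk31 21, Dazl 20, Hormad1 19, Slc25a31 18, Mael 18, Sycp1 17 and Sycp3 12, while Stra8 held 5. The median over measured genes was 11. Observed over expected CpG was 1.004 in Ddx4 and 0.267 in Stra8, with a median of 0.595 over measured genes. Stra8, which retinoic acid switches on at the entry into meiosis, thus had the CpG-poorest window of the 9. It held neither motif, and nor did Dazl with its 20 CpG. For Stk31 and Hormad1 the table listed a second start nearby, and the first entry was used; the second held the same numbers of both motifs. Among 53 of the other germline genes described further on that had a window, 9 (17.0%) held the E-box, 7 (13.2%) the E2F motif and 1 (Tex12) both.

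**Figure D1:**
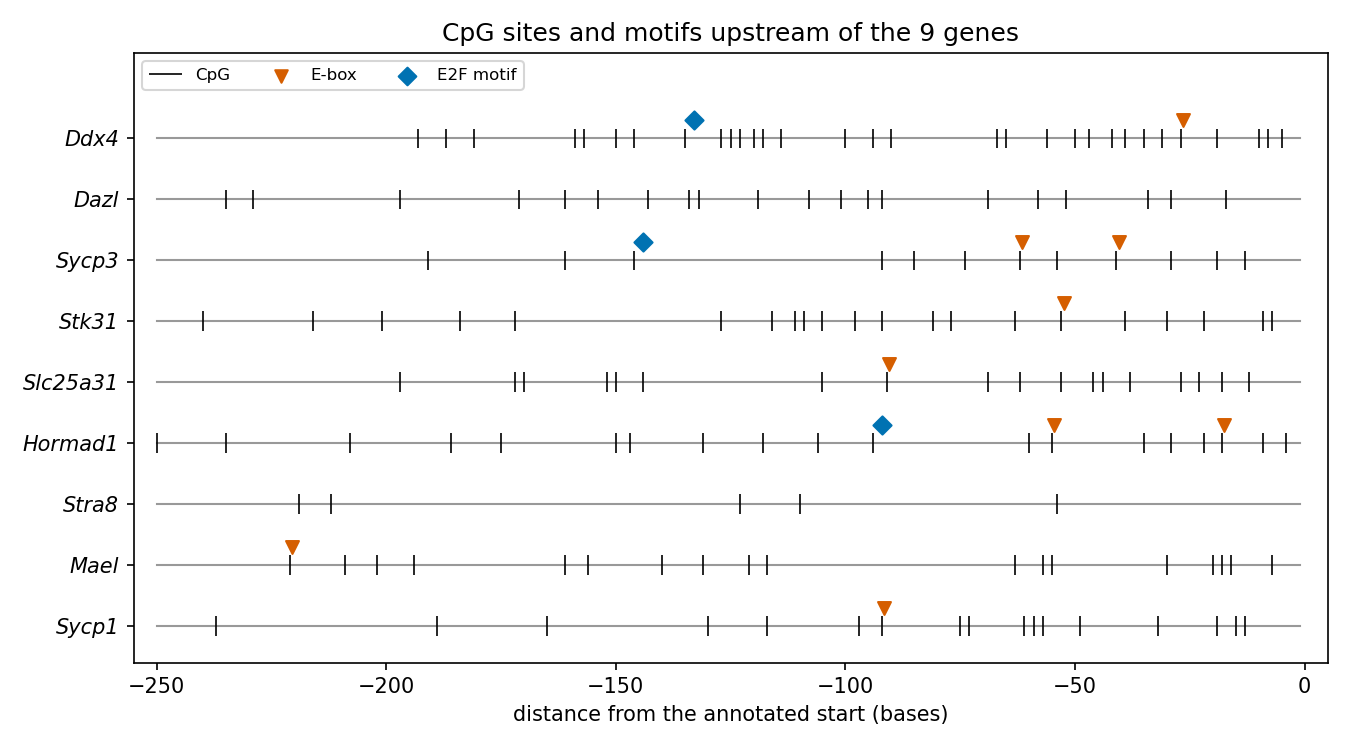
Map of the 250 bases before the annotated start of each gene, with distance from the start in bases on the horizontal axis; ticks are CpG sites, triangles the E-box and diamonds the E2F motif. Of the 9 windows 7 hold an E-box and 3 an E2F motif, Dazl and Stra8 hold neither, and Stra8 has 5 CpG.

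Values below are log2 intensities of repeats 1, 2 and 3. The background cutoff of each array was taken from 1170 odorant and pheromone receptor genes (Olfr, Vmn1r, Vmn2r), families silent in most cells, as their 95th percentile, log2 4.72, 4.60 and 4.61. Of the 9 genes 8, all but Sycp1, were above this cutoff on all 3 arrays, beside 71.4% of genes outside the receptor families. Only 4 (Ddx4, Dazl, Sycp3 and Mael) were so at the 99th percentile of the receptor genes (55% of genes) or with other silent families as the background (42% of genes), which put the cutoff at 6.23, 6.31 and 6.25. Stk31, Slc25a31 and Stra8 were therefore near background in at least 2 of the repeats. So was the mean of the Hormad1 probe sets in repeat 1, though the brighter probe set exceeded the 99th percentile on all 3 arrays. Stk31, Slc25a31, Stra8 and the Hormad1 mean stayed below the cutoff of the other silent families on every array. That held in repeat 2 too, where Stra8 read 6.17 against 6.31. Probes differ in brightness, so no gene's level is ranked against another's. The arrays read pooled cells, in which fewer cells with a transcript and less RNA per cell cannot be told apart.

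The ES cell identity of the samples was read from 9 measured marker genes, all above background on all 3 arrays. Beside this and every later list count stand 71.4% of genes outside the receptor families, or 42% of genes at the cutoff of the other silent families. Pou5f1 read 11.63, 11.84 and 11.83, Sox2 10.78, 10.76 and 10.79, and Nanog 10.89, 11.24 and 10.88. Of 13 measured genes of spermatocytes and spermatids, 4 were above background on all 3 arrays, namely Prm1, Prm2, Ldhc and Tcp11, and of 14 oocyte genes 6 were. None of the 13 and 2 of the 14 (Ooep and Sohlh2) exceeded the cutoff set by the other silent families on all 3 arrays. Of 10 markers of the somatic gonad 6 were above background on all 3 arrays and none exceeded that higher cutoff on all 3. Sox9 read 5.39, 5.50 and 5.34 and Wt1 5.40, 5.23 and 5.28, while Amh, at 5.11, 5.003 and 4.60, was above background on 2 arrays.

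Ddx4, Dazl and Stk31 come first. Ddx4, the germ cell helicase also called Vasa, read 6.64, 7.22 and 6.48, or 99.5, 149 and 89.1 as intensity. Repeat 2 stood above the other repeats, which lay 0.16 apart, and it exceeded their mean by 0.66 (1.58-fold). Dazl, which binds mRNA and promotes its translation in germ cells, read 6.74, 7.28 and 6.35, or 107, 156 and 81.4 as intensity. Its 3 repeats were all apart, with repeat 2 at 0.74 above the mean of the others (1.67-fold) and repeat 3 lowest, 0.40 below repeat 1. Stk31, a germ cell gene with a Tudor and a kinase domain, read 5.24, 5.88 and 5.20. Repeats 1 and 3 were 0.037 apart, and repeat 2 lay 0.66 above their mean (1.58-fold).

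Mael, a factor of the piRNA pathway that silences transposons, was the even member. It read 7.13, 7.09 and 6.98, or 140, 136 and 126 as intensity, and its repeats spanned 0.15. Repeat 2 exceeded the mean of the others by 0.031, a difference that turned to -0.0076 after quantile normalization and so has no settled sign. Mael and Ddx4 are both known from germ granules, and repeat 2 stood apart in Ddx4 and not in Mael.

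Stra8, which licenses the entry into meiosis, had the widest spread of the 9. It read 5.12, 6.17 and 4.95, or 34.7, 71.8 and 30.9 as intensity. Repeat 2 stood 1.13 above the mean of the others (2.19-fold), while repeats 1 and 3 differed by 0.17 and lay close to their arrays' cutoffs of 4.72 and 4.61. With 16 added to every intensity before taking log2, repeat 2 exceeded the others by 0.85. Slc25a31, the ADP/ATP carrier of the germline also called Ant4, read 5.17, 5.65 and 5.03, with repeat 2 at 0.54 above the mean of the others (1.46-fold).

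The chromosome axis genes Sycp3 and Hormad1 followed another pattern. Sycp3, a lateral element protein of the synaptonemal complex that joins homologous chromosomes, read 6.46, 7.07 and 6.99, or 88.0, 134 and 127 as intensity. Repeats 2 and 3 lay 0.078 apart, and repeat 1 was 0.57 below their mean. Hormad1, which binds unsynapsed chromosome axes, read 5.13, 5.72 and 5.72, with repeat 1 at 0.59 below the mean of the others and repeats 2 and 3 only 0.0042 apart. Its 2 probe sets read 6.14, 6.42 and 6.46, and 4.12, 5.02 and 4.97. Both had repeat 1 lowest, but the second was below background there and so has no detected level in repeat 1. The SD was 0.17 in the brighter probe set and 0.51 in the other. Sycp1, the transverse filament protein of the same complex, read 3.98, 4.36 and 4.03. All 3 values were below the cutoff, so its repeat 2 is highest only among values with no detected level.

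**Figure D2:**
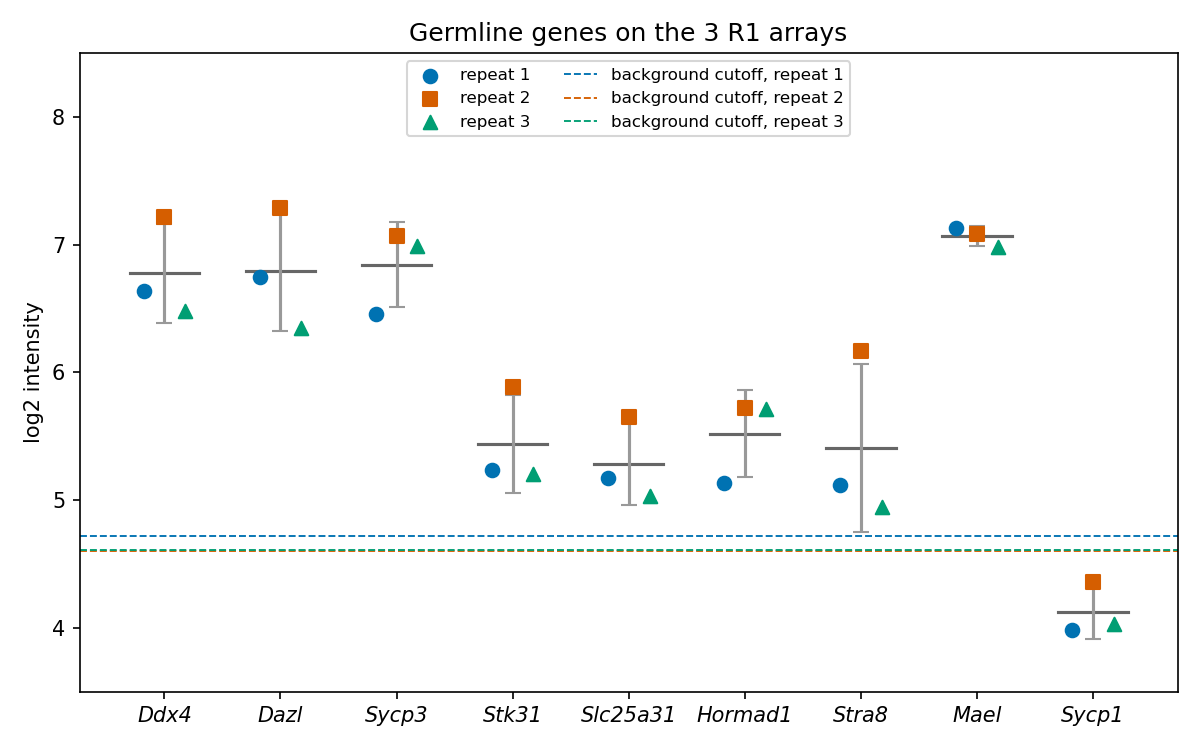
Log2 intensity of the 9 genes, with 1 marker for each repeat, the mean and SD over the 3 repeats in grey, and the background cutoff of each array as a dashed line. Repeat 2 is highest in 8 of the 9 genes (in Hormad1 by only 0.0042), Mael is even, and Sycp1 lies below the cutoff on all 3 arrays.

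The genes thus fell into groups by which repeat lay farthest from the gene's mean. It was repeat 2, on the high side, in Ddx4, Dazl, Stk31, Slc25a31 and Stra8, and repeat 1, on the low side, in Sycp3 and Hormad1. With each gene written as its deviations from its own mean over the 3 arrays, the closest pair among the 8 detected genes was Hormad1 and Sycp3, at a Euclidean distance of 0.053 log2 units. That distance includes the Hormad1 probe set that was below background in repeat 1; in the brighter probe set alone repeat 1 was 0.30 below the mean of the others. Ddx4 lay 0.086 from Stk31 and 0.094 from Slc25a31, while Stra8 and Sycp3 were 0.81 apart. Repeat 2 was at least 0.5 above the mean of the others in 5 of the 9 genes, beside 1.49% of 12820 genes above background on all 3 arrays. It was the highest repeat in 8 of the 9, and in 7 of the 8 detected ones, beside 36.9% of those genes. In Hormad1 it was so by only 0.0042, and repeat 3 was highest in the brighter probe set (6.46 against 6.42). Repeat 1 was the lowest in 3 of the 9 (Sycp3, Hormad1 and Sycp1, the last not detected), beside 33.3%. These counts restate how the genes were chosen and carry no test.

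**Figure D3:**
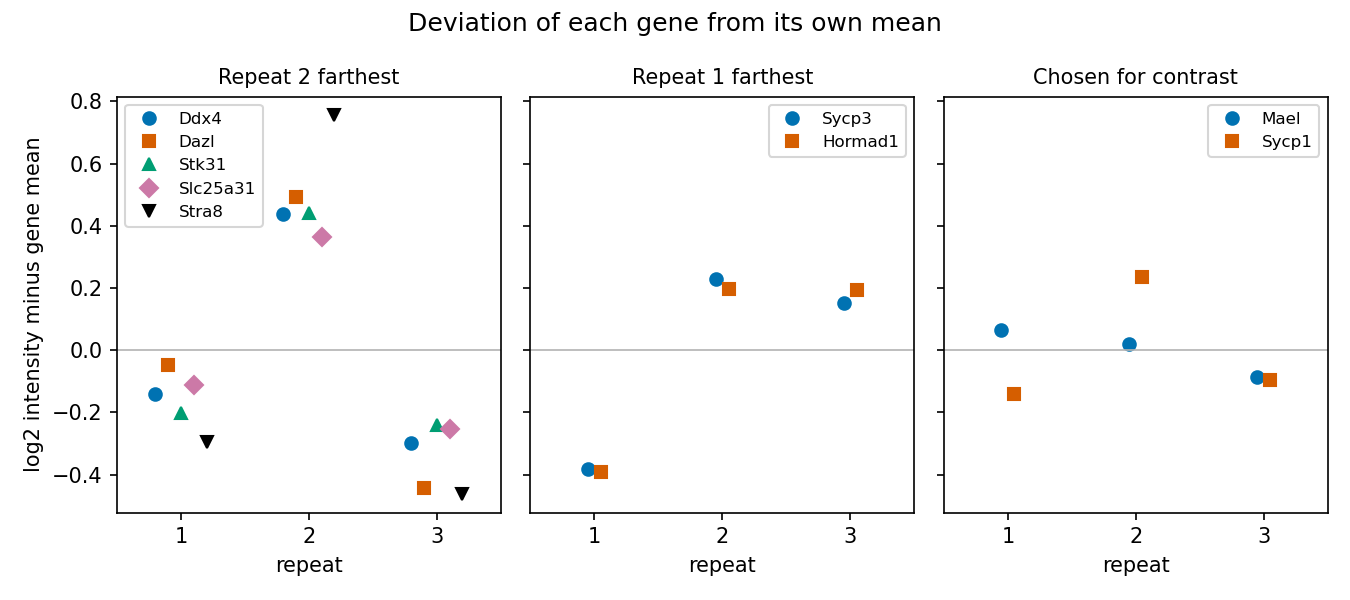
Deviation of each gene's log2 intensity from its own mean, by repeat, in 3 panels. Ddx4, Dazl, Stk31, Slc25a31 and Stra8 have repeat 2 farthest from the mean, Sycp3 and Hormad1 have repeat 1 farthest, and Mael stays within 0.15 over the 3 repeats.

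The size of these spreads was set beside that of other genes as a description. The SD over the 3 repeats was 0.66 in Stra8, 0.47 in Dazl, 0.39 in Ddx4, 0.38 in Stk31, 0.34 in Hormad1, 0.33 in Sycp3, 0.32 in Slc25a31, 0.20 in Sycp1 and 0.076 in Mael. The median SD was 0.36 over the 8 genes above background, and 0.101 over all 12820 such genes, of which 2.6% exceeded 0.3. Among genes within 0.5 log2 units of the same level, 0.0592% had a larger SD than Stra8, 0.852% than Dazl, 1.35% than Ddx4, 2.51% than Sycp3 and 67.6% than Mael. Across all genes above background on at least 1 array, a test of each gene's variance in limma, adjusted by Benjamini-Hochberg, called 22 of 13596 (0.162%). None of the 8 members it read was among them, and 7 had an unadjusted p under 0.05 in limma, as 782 of all genes did. The members were picked for uneven repeats on the same 3 arrays, so both counts are descriptions and nothing is read from them.

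**Figure D4:**
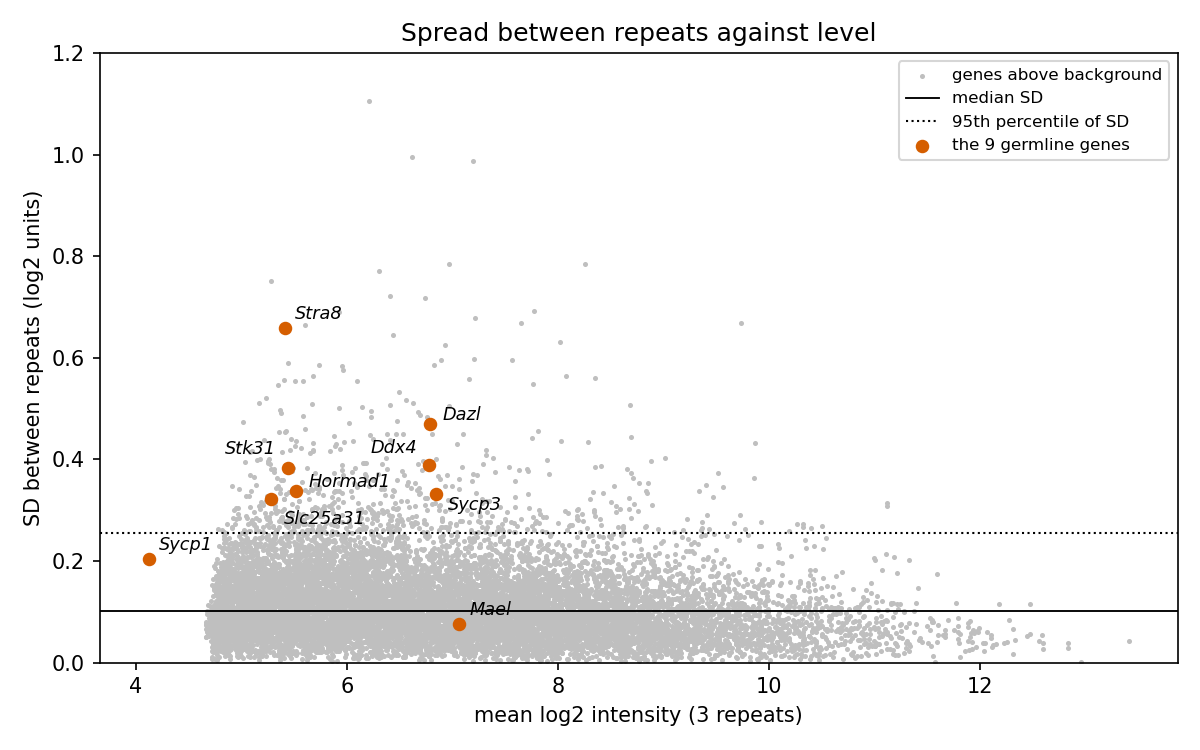
SD between the 3 repeats against mean log2 intensity; grey points are the 12820 genes above background on all 3 arrays, orange points the 9 genes, and the lines the median and the 95th percentile of SD over the grey points. Of the 9 genes 7 lie above the 95th percentile (0.25), Mael lies under the median, and Sycp1 lies left of the detected genes.

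By the median over the detected members, most of the spread lay in repeat 2. Between repeats 1 and 3 alone, their median SD was 0.115, against 0.0761 over all genes above background. Without repeat 1 it was 0.458, against 0.0850, and without repeat 3 it was 0.413, against 0.0858. The genes were chosen for uneven levels on these arrays, so this is a description with no test. Between repeats 1 and 3 Stk31 differed by 0.037, Slc25a31 by 0.14, Ddx4 by 0.16 and Stra8 by 0.17. Of all genes above background, 81.8%, 38.2%, 32.5% and 30.1% differed more. Sycp3 and Hormad1 did not follow: they read 0.53 and 0.58 higher in repeat 3 than in repeat 1, and 0.507% and 0.32% of genes differed more. Dazl was 0.40 lower in repeat 3 than in repeat 1, with 2.4% of genes differing more.

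Most detected fibroblast markers were also highest in repeat 2. Of 11 measured markers 9 were above background on all 3 arrays, all but Lum and S100a4, and repeat 2 was the highest in 8 of these 9, beside 36.9% of all genes. Their summed intensity over the 11 was 1592, 2396 and 1637, and that of the 9 germline genes 594, 829 and 594. Acta2, smooth muscle actin, read 7.57, 9.11 and 8.07 and was called by the variance test (limma, adjusted p = 0.00828). The collagen Col1a1 read 8.42, 9.11 and 8.59 (adjusted p = 0.248) and Postn, a matrix protein, 5.47, 6.60 and 5.78 (adjusted p = 0.15). Smaller differences were read in Col1a2 (8.02, 8.52 and 8.01) and Col3a1 (7.17, 7.46 and 6.97). Dcn, a matrix proteoglycan, was highest in repeat 1 (8.06, 8.02 and 7.77), and S100a4 (4.98, 4.55 and 5.01) and Lum (4.60, 4.21 and 4.30) were lowest in repeat 2. The part of these cells or genes in the germline values was not tested.

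Other germline genes, without the members, were read for context, in lists written with earlier results of these data known. Over 5 lists (further methylation-linked germline genes, piRNA pathway, synaptonemal complex, meiotic recombination, primordial germ cells) 63 further genes were measured. Of these, 42 were above background on all 3 arrays, beside 71.4% of genes outside the receptor families. The median SD of the 42 was 0.145, beside 0.101 over all genes above background. Repeat 2 was highest in 18 of the 42, beside 36.9% of all genes, and at least 0.5 above the others in 3, beside 1.49%. The 9 genes were chosen for uneven levels, so their larger spread than that of these lists follows from the choice. The variance test in limma called none of the 5 lists' genes. An unadjusted p under 0.05 was read in 2 of 10 tested in the first list and 2 of 12 in the second. It was read in 0 of 7 in the third, 0 of 7 in the fourth and 2 of 11 in the fifth. Over all genes tested it was 782 of 13596. At the cutoff of the other silent families fewer genes of each list passed on all 3 arrays, beside 42% of genes. In the order of the lists they were 6 of 15, 5 of 19, 5 of 10, 2 of 13 and 6 of 13. Some genes stand in more than 1 list, as Rnf17 does in the first and second, so these counts overlap.

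Among genes described as methylated at their promoters in somatic cells, 10 of 15 measured were above background on all 3 arrays, with a median repeat 2 difference of 0.24. D1Pas1, a helicase gene with close copies and so uncertain, read 6.40, 6.79 and 6.17, and Mov10l1, a piRNA helicase, 6.22, 6.47 and 6.15. Asz1, Dpep3, Tuba3b, Tdrd1 and Gtsf1 were below background on all 3 arrays. Of 19 measured piRNA pathway genes 11 were above background, with a median repeat 2 difference of 0.022. Tdrd7, a Tudor protein of germ granules, read 5.47, 5.86 and 4.95 (SD 0.46), and Piwil2, a Piwi protein, 6.29, 6.36 and 6.40 (SD 0.055), while Piwil1 was below background on all 3 arrays.

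Further meiotic genes were read beside Stra8, Sycp3 and Hormad1. Of 10 further genes of the synaptonemal complex and meiotic cohesin, 7 were above background and Sycp2, Tex12 and Rad21l were not. Syce2 read 8.40, 8.29 and 8.36 and Syce1, a central element protein, 6.66, 6.80 and 6.998, and the SD of the 7 was at most 0.24 (Hormad2). So parts of the complex that Sycp1 and Sycp2 belong to were detected and these 2 were not. Of 13 recombination genes 7 were above background. Repeat 2 was the lowest in 5 of these 7, with a median difference of -0.24, beside 34.8% of all genes above background; Rec114, a partner of the break-forming machinery, read 5.68, 5.39 and 5.75. Spo11, which makes the meiotic breaks, was below background at 3.24, 3.35 and 3.13.

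Genes that answer to retinoic acid were read because Stra8 does. Of 10 measured, 8 were above background, with a median repeat 2 difference of -0.070, and repeat 2 was highest in 1 (Crabp2, at 6.36, 6.77 and 6.39). Rarb was below background on all 3 arrays and Cyp26a1 in repeat 1. Rara, a retinoic acid receptor, read 7.05, 6.91 and 7.59 (limma, adjusted p = 0.433). Of 13 primordial germ cell genes 11 were above background, all but Nanos2 and Boll. Prdm14 read 6.44, 6.70 and 6.67 and Tfap2c 7.56, 7.62 and 7.50, and Ifitm3, a membrane protein gene also induced by interferon, read 9.30, 9.79 and 9.11 (adjusted p = 0.224).

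Measured genes of DNA methylation and demethylation numbered 15 and include readers and cofactors beside the enzymes. All 15 were above background on all 3 arrays, beside 71.4% of genes outside the receptor families. Dnmt3b, a de novo methyltransferase, read 9.01, 8.44 and 9.20, so repeat 2 was 0.67 below the mean of the others (SD 0.40). Dnmt3a, its paralog, read 7.96, 7.76 and 8.11, Dnmt1, which maintains methylation, 9.79, 9.77 and 9.96, and the cofactor Dnmt3l 9.94, 9.86 and 10.09. Tet2, which oxidises methylcytosine, was highest in repeat 2, at 9.14, 9.50 and 9.04, and Tet1 lowest there, at 10.35, 10.22 and 10.52. Repeat 2 was lowest in 9 of the 15, beside 34.8% of all genes above background. None was called by the variance test in limma (adjusted p = 0.162 for Dnmt3b and 0.60 for Tet2). In that test 2 of 15 had an unadjusted p under 0.05, beside 782 of 13596 genes. The part of these 15 genes in the germline values was not tested.

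Repressors of germline genes were also all detected, 21 of 21, beside 71.4% of genes outside the receptor families. The median SD of the 21 was 0.084, beside 0.101 over all genes above background. Repeat 2 was highest in 13 of the 21, beside 36.9% of all genes, with a median difference of 0.11. Mga read 9.52, 9.62 and 9.50, its partner Max 9.16, 9.28 and 9.24, and E2f6 7.39, 7.63 and 7.53. Pcgf6, the subunit that defines PRC1.6, read 8.54, 8.92 and 8.70, and the histone methyltransferase Setdb1 8.89, 9.03 and 8.96. Rybp had the largest SD, 0.19, at 8.55, 8.93 and 8.66. None of the 21 was called by the variance test in limma, and none had an unadjusted p under 0.05.

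**Figure D5:**
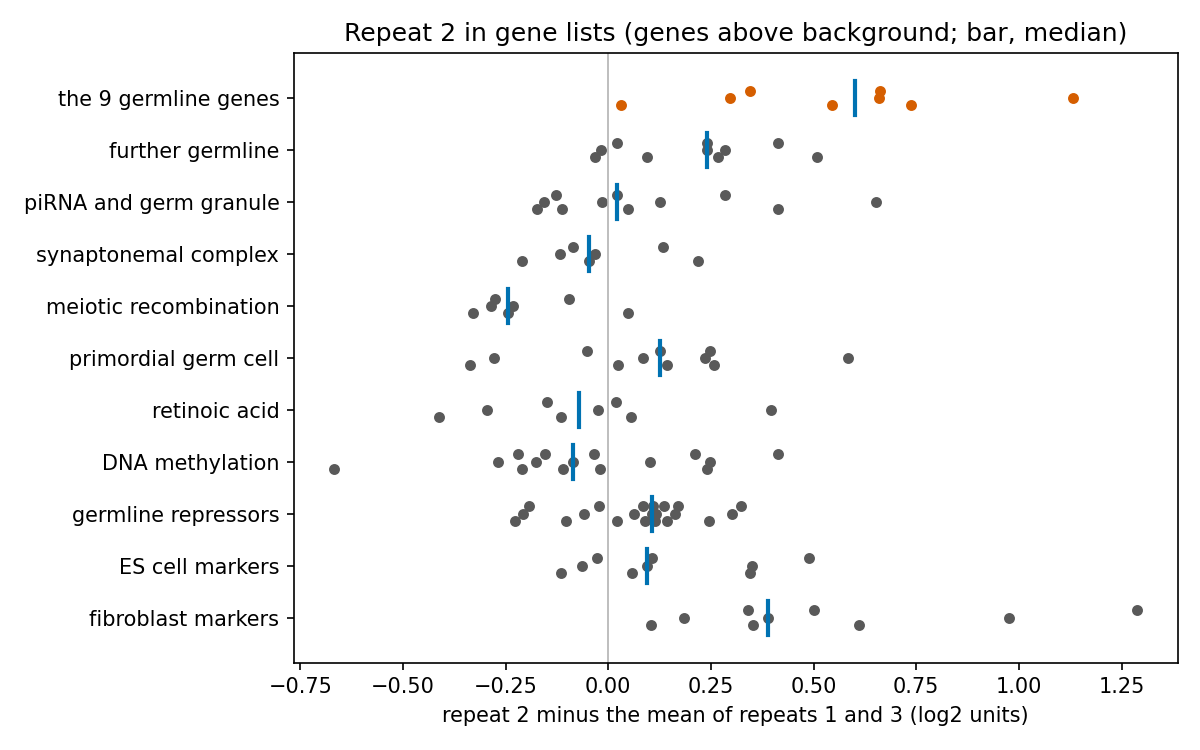
Log2 intensity of repeat 2 minus the mean of repeats 1 and 3, with 1 point for each gene above background on all 3 arrays and a bar at the median of each list. The 8 detected germline genes have a median of 0.60 and fibroblast markers 0.39, while the other lists lie between -0.24 and 0.24.

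Genes with the most similar pattern were sought by the same distance among genes above background on all 3 arrays. Nearest to the median deviations of the 8 detected members were Tfpi2, Sdc3, Dusp4, Aqp3 and Fstl1, at distances from 0.023 to 0.039 over 3 arrays. Tfpi2 read 5.59, 6.14 and 5.50 and Fstl1 8.58, 9.18 and 8.56. The nearest to Ddx4 was Penk (6.54, 7.12 and 6.37), to Slc25a31 Igf2 (7.18, 7.64 and 7.03), to Dazl Vgll3 (6.16, 6.74 and 5.77) and to Stk31 Fhl2 (5.74, 6.41 and 5.73). Timp3, a metalloproteinase inhibitor (6.94, 7.99 and 6.72), and Thbs1, a matricellular protein (9.40, 10.50 and 9.30), came closest to Stra8. Oas2 (5.60, 6.72 and 5.47) came next. Mir692-1 (8.45, 9.07 and 8.998) was nearest to Sycp3, followed by Prorsd1 (6.37, 6.95 and 6.90). Anp32-ps (8.30, 8.87 and 8.85) was nearest to Hormad1, followed by Zfp600 (8.14, 8.70 and 8.68). Not all of the 3 genes nearest to each detected member are named here, and those of Mael are left out. With 3 values a gene many patterns can coincide, and the likeness is a description of these arrays only.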

How the data were processed

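Each array's deposited file gives 1 intensity per probe set, linear rather than log as judged by the range. The submitters' processing notes name GCOS 1.4; how the authors corrected background, normalized and summarised probes is not stated in the sources used here. Array medians were 47.8, 46.7 and 46.8. Of 26730 probe sets, 20764 had 1 gene symbol in the platform annotation, while 1419 with several symbols and 4547 without one were not used. The deposited intensities were taken to log2 and averaged over the probe sets of a gene, giving 19057 genes. The members and lists were chosen with earlier results of these data known.

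Differences are 1 repeat minus the mean of the other 2. Spread was tested over all genes above background on at least 1 array by the variance of an intercept-only limma 3.58.1 fit (R 4.3.3) over its trended robust prior, against F with 2 and 9.86 degrees of freedom, Benjamini-Hochberg adjusted, threshold 0.05. On simulated data with 13596 genes 41% of genes shifted by 1 log2 unit on 1 array were recovered, and 100% of those shifted by 1.5. The simulated variances did not depend on level, unlike the trend fitted to the arrays. No shift under 1 was simulated, so recovery of smaller differences is not known. Named genes are the members and, in each list, genes among the first 3 measured, the largest SD, calls, and genes above, or not above, background where 5 or fewer were so; others were chosen after their values were seen. Promoter windows were matched by symbol, with the first entry of a gene used; all 9 members matched. Other steps ran in Python 3.11.15 (pandas 2.3.3, numpy 2.4.6). Alternatives were other background cutoffs, quantile normalization, median centring, the highest probe set, 16 added before log2, other priors, all genes, and leaving out each repeat. The number of arrays limits the precision.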

Additional observations from a re-analysis of the deposited data

How the results depend on the processing

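Of the 9 germline genes, 8 were above background, and 4 with the cutoff at the receptors' 99th percentile or from other silent families. The count stayed 8 after quantile normalization. It was also 8 without any 1 repeat and when 2 of 3 arrays sufficed. Those settings could not change it, because 8 genes exceeded the cutoff on all 3 arrays and Sycp1 on none. Their median SD was 0.287 to 0.375 under quantile normalization, median centring, the highest probe set and 16 added before log2, and 0.115 to 0.458 with 1 repeat left out, the lowest without repeat 2. Genes called by the variance test numbered 22, against 13 after quantile normalization, 39 with median centring, 10 without robust fitting and 1 without the trend; they ranged from 0 to 34 with 1 repeat left out (0 without repeat 1, 34 without repeat 2, 11 without repeat 3). The cause was not tested. Of 108 recomputed differences of single repeats in the 9 genes, 107 kept their sign and moved by less than 1 SD. That of Mael in repeat 2 turned to -0.0076 after quantile normalization. The SD was the gene's own between repeats, a wide limit for genes chosen as uneven. Taking the highest probe set could change only Hormad1, the gene with 2 probe sets. Its repeat 1 difference went from -0.59 to -0.30 and still counted as within 1 SD. Hormad1 read 6.34 from its brighter probe set. No paired analysis was possible because there is 1 group.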
